A study of Mus musculus with 6 samples.

Results

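The liver makes most of the proteins of blood clotting and of complement, and 37 genes encoding such plasma proteins were followed in livers with and without LKB1. The members were chosen by name, as 19 coagulation and 18 complement genes, out of 55450 genes in the deposited table. Each of the 37 matched 1 row of that table, and all 37 passed the filter on low counts. The mice were of the strain given as C57BL/J. The knockout group carried floxed LKB1 (LKB1 fl/fl) and the wild-type group normal LKB1, and both groups received AAV8 Cre at 6 weeks of age. AAV8 is a virus vector that enters hepatocytes well. Livers were collected at the age of 10 weeks, which was 4 weeks after the vector. The promoter driving Cre is not given in the sources used here, so the labels do not say in which liver cells LKB1 was deleted. RNA from the left lobe of 3 knockout and 3 wild-type mice was sequenced as polyA-selected mRNA, with 1 library per mouse.

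LKB1, encoded by Stk11, is a kinase that activates AMPK and related kinases. Coagulation is a cascade of serine proteases, made as inactive precursors, that ends when thrombin cuts fibrinogen into fibrin. Complement is a second cascade of plasma proteases. Its classical, lectin and alternative pathways meet at C3, and its terminal components C5 to C9 assemble into a pore in the target membrane. Hepatocytes secrete nearly all of these proteins, fibrinogen and C3 are acute phase proteins, and several terminal components are known to differ between male and female mice.

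The 6 libraries held 47659122 to 56147667 counts each, and 18999 to 20241 genes had a count. Stk11 was at 22.1, 14.4 and 11.4 CPM (counts scaled by the TMM-adjusted library total) in knockout replicates 1 to 3 and at 66.1, 64.2 and 69.7 CPM in wild-type replicates 1 to 3. Its log2 fold change (knockout minus wild type) was -2.06 ± 0.25 (SE; edgeR quasi-likelihood test, adjusted p = 0.0167), and the groups did not overlap. Replicate 1 of each group held 42472 (knockout) and 29243 (wild type) Xist counts and 3 or 6 counts of 4 Y-linked genes. Replicates 2 and 3 held at most 16 Xist counts and 6146 to 8199 Y-linked counts. The labels give no sex. These are called below the Xist pair, which has 1 library per group and so no replicate check, and the 4 Y-linked libraries. The summed CPM of 10 hepatocyte markers was 41548 to 93916 in knockout and 106500 to 153262 in wild type, with no marker at 0. The 10 markers went both ways, with 7 negative and 3 positive log2 fold changes (-2.07 to 2.30). Without overlap 6 were lower and 2 higher, beside 15.5 and 16.9 percent of all genes. Of these markers edgeR called none, with 2 lower and 2 higher at an unadjusted p under 0.05, DESeq2 called 4 lower and 2 higher, and limma voom called 1 lower. Among all genes 11.7 percent were lower and 14.6 percent higher at that unadjusted p (edgeR). DESeq2 called 7.03 percent of all genes lower and 8.77 percent higher, and limma voom 1.22 and 1.75 percent.

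F11, the precursor of the intrinsic pathway protease factor XIa, fell in the knockout livers and was the only one of the 37 members past the test over all genes. Of the 37 members 31 had a negative and 6 a positive log2 fold change, with a median of -0.44 beside 0.01 over all 14539 genes tested. Across all genes edgeR called 1.22 percent lower and 2.15 percent higher at an adjusted p under 0.05 (177 and 313 genes; 131 and 380 with library totals in place of TMM scaling). The members' share called lower was 2.7 percent, and no member was called higher. At an unadjusted p under 0.05, 14 members were lower and 1 was higher, which was Pros1; DESeq2 called 11 lower and 1 higher, beside 7.03 and 8.77 percent of all genes. The limma voom test called 1 lower and 0 higher, beside 1.22 and 1.75 percent of all genes. Over all genes 11.7 percent were lower and 14.6 percent higher at that unadjusted p.

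The knockout and wild-type values of 19 members did not overlap. Of these, 17 were lower in every knockout library than in every wild-type library (45.9 percent of the members, beside 15.5 percent of all genes), and F12 and Pros1 were higher (5.41 percent, beside 16.9 percent). The members took 3.42, 2.03 and 2.31 percent of all counts in knockout replicates 1 to 3 and 4.13, 3.66 and 3.74 percent in wild-type replicates 1 to 3. In bulk liver, fewer hepatocytes and less RNA per hepatocyte cannot be told apart.

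Within the 4 Y-linked libraries (edgeR, adjusted over 14546 genes) 17 members fell and Kng2 rose. Those 17 are 45.9 percent of the members, beside 16.1 percent of all genes called lower there, and the rise of Kng2 is 2.7 percent, beside 17.2 percent called higher. The members' median log2 fold change was -0.60 in the Y-linked libraries and -0.08 in the Xist pair, beside 0.0064 and -0.019 over all genes. A negative value was found for 32 members in the Y-linked libraries and for 23 in the Xist pair. For 31 of the 37 the value was lower in the Y-linked libraries than in the Xist pair. Stk11 itself was at -2.38 in the Y-linked libraries and at -1.58 in the Xist pair. The part of that difference in the members' values was not tested.

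**Figure D1:**
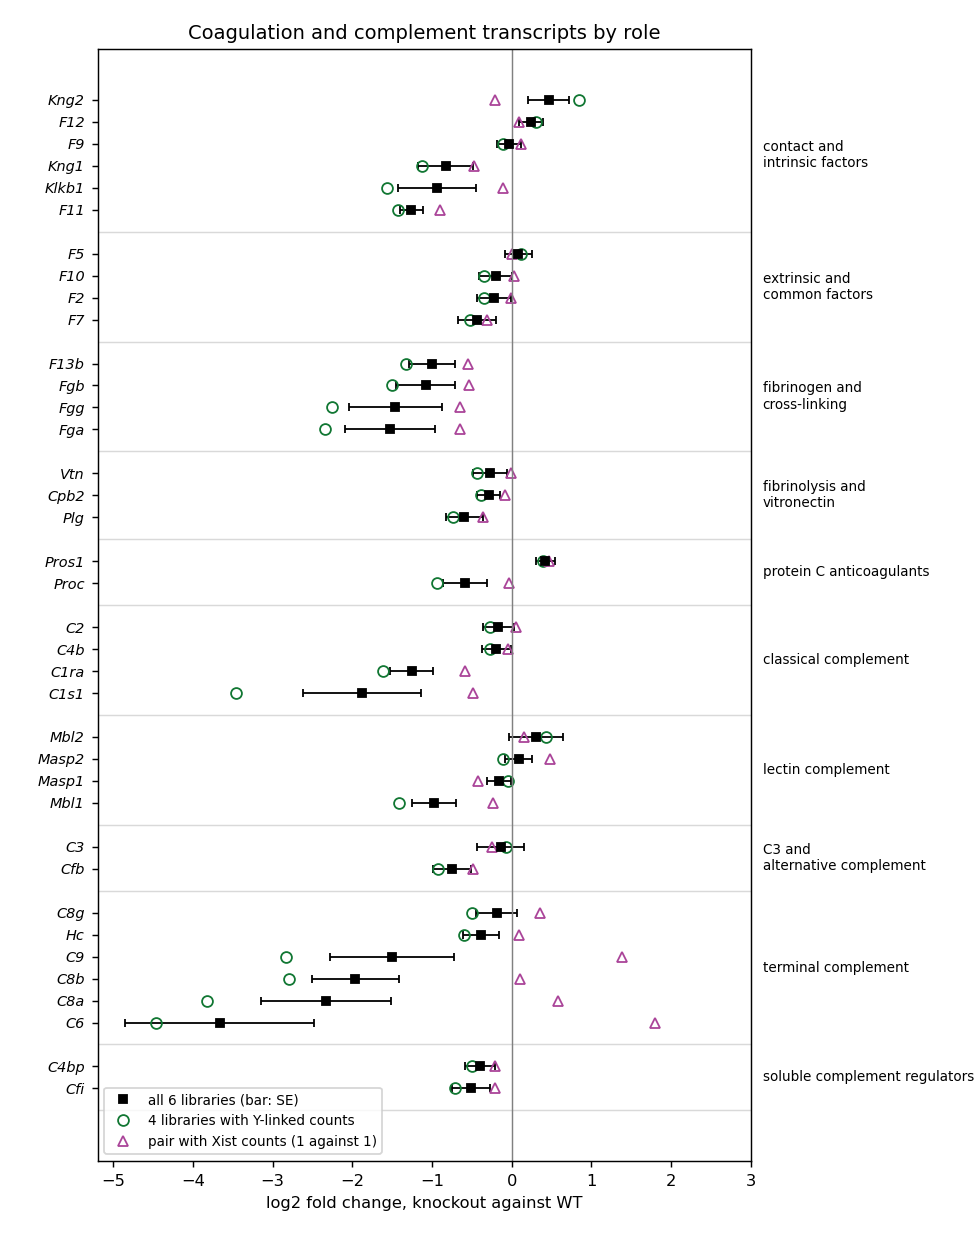
Log2 fold change (knockout minus wild type) of each of the 37 members, grouped by role; black squares are the values over all 6 libraries with their SE as bars, open circles the 4 Y-linked libraries and open triangles the Xist pair. F11 at -1.26 is the only member past the adjusted p threshold over 6 libraries, and C6, C8a, C9, C1s1 and C8b have the widest gaps between the Xist pair and the Y-linked libraries.

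The contact and intrinsic factors start clotting on charged surfaces. F11 was at 33.5, 30.1 and 30.4 CPM in knockout and at 62.6, 83.8 and 78.5 CPM in wild type. Every knockout library was below every wild-type library, and the knockout mean of 31.3 ± 1.87 CPM was 41.8 percent of the wild-type mean of 75 ± 11.1 CPM (SD, n = 3 each). On the log2 scale F11 fell by 1.26 ± 0.15 (SE; edgeR adjusted p = 0.0147). It was -1.43 in the Y-linked libraries and -0.90 in the Xist pair. The call did not hold without knockout replicate 2 (adjusted p = 0.0564), knockout replicate 3 (0.101), wild-type replicate 2 (0.104) or wild-type replicate 3 (0.104), nor with the replicate number as a block (0.0539). Its log2 fold change lay between -1.43 and -1.17 in all 14 alternatives, and it was called in 9 of them.

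Klkb1 encodes plasma prekallikrein, the protease that activates factor XII, and lies 4657 bp from F11 on chromosome 8 (GRCm38). Its level was 366, 80.0 and 215 CPM in knockout and 396, 453 and 420 CPM in wild type. The groups did not overlap, but knockout replicate 1 was close to the wild type. The difference was -0.94 ± 0.49 on the log2 scale (adjusted p = 0.268). In the Y-linked libraries Klkb1 fell by 1.57 on the log2 scale (adjusted p = 0.0462). A second annotated gene on the same strand, Gm45753, shares 2267 bases of its transcript, so the division of reads between them is uncertain.

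The kininogen genes, whose products carry prekallikrein and factor XI and release bradykinin, had opposite signs. Kng1 was at 1554, 669 and 887 CPM in knockout and 2151, 1790 and 1591 CPM in wild type, with a log2 fold change of -0.83 (adjusted p = 0.18). Kng2 was at 261, 300 and 349 CPM in knockout and 302, 197 and 162 CPM in wild type, with a log2 fold change of 0.46 (adjusted p = 0.305). The Kng1 groups did not overlap and the Kng2 groups did. In the Y-linked libraries Kng1 fell by 1.12 (adjusted p = 0.0164) and Kng2 rose by 0.85 (adjusted p = 0.0167). Their transcripts are 91.8 percent identical over 1345 bases, and both had counts divided between genes.

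F12, the factor XII gene, was at 456, 527 and 510 CPM in knockout and 427, 423 and 410 CPM in wild type. All knockout values were above all wild-type values, and the difference was 0.24 ± 0.15 on the log2 scale (adjusted p = 0.349). F9, the gene affected in haemophilia B, had a log2 fold change of -0.03 ± 0.15 (adjusted p = 0.904).

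The extrinsic and common factors carry the cascade from tissue factor to thrombin. None of the 4 was called by edgeR, DESeq2 or limma voom with group alone over 6 libraries. None reached an unadjusted p under 0.05 in those tests. With the Xist or Y-linked state as a term, F7 had an unadjusted p of 0.0465 (edgeR). In the Y-linked libraries the log2 fold changes were -0.53 for F7, -0.34 for F10, 0.11 for F5 and -0.35 for F2. None was called there, and F7 had an unadjusted p of 0.0483 (edgeR). F7, which binds tissue factor, was at 81.7, 44.0 and 67.2 CPM in knockout and 102, 82.8 and 77.0 CPM in wild type, with a log2 fold change of -0.44 ± 0.24 (adjusted p = 0.293). The neighbouring gene F10, whose product cuts prothrombin, had a log2 fold change of -0.20 (adjusted p = 0.569). F5, the cofactor of factor Xa, was at 544, 520 and 666 CPM in knockout and 541, 566 and 528 CPM in wild type. The groups overlapped for both F7 and F5, and the F5 value was 0.08 ± 0.17 (adjusted p = 0.793). F2, prothrombin, had a log2 fold change of -0.22 ± 0.21 (adjusted p = 0.535).

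Fibrinogen is a dimer of 3 chains, and their genes Fgg, Fga and Fgb lie in a cluster on chromosome 3, with 11 kb between Fgg and Fga and 6.51 kb between Fga and Fgb (GRCm38). The 250 bases before each start site are shown because the 3 genes share a locus and had low values in the same libraries. They are from RefSeq on GRCm38.p6, at chr3:83025903-83026152 (plus strand) for Fga, chr3:83049864-83050113 (minus strand) for Fgb and chr3:83007474-83007723 (plus strand) for Fgg. Each is written 5′ to 3′ on the gene's strand, with matches to the searched motifs in capitals.
Fga: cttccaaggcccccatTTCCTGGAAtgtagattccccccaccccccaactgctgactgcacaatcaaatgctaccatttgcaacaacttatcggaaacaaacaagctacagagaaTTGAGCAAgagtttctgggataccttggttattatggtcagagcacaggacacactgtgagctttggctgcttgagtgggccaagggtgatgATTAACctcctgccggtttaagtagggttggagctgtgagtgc
Fgb: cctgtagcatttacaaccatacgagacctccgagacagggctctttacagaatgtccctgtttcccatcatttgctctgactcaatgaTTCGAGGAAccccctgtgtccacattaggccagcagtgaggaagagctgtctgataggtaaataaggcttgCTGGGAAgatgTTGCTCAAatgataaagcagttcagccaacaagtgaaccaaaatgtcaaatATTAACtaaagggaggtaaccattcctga
Fgg: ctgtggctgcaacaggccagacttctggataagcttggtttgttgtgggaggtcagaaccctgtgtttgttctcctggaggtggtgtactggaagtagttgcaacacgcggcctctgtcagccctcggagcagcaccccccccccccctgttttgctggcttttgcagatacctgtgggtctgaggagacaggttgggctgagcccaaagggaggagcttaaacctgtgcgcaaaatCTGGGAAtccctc

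The motifs, searched on both strands, were TTCNNNGAA (STAT-type), GTTAAT (HNF1-type), TTGCNNAA (C/EBP-type), CAAAGTCCA (HNF4-type) and CTGGGAA (an interleukin response type). Fga held a STAT-type match starting 234 bases before the start, a C/EBP-type match at 135 and an HNF1-type match at 43. The annotation of the counts (GENCODE M21) starts Fga at 83026076, inside this window. By that start the HNF1-type match of Fga lies within the gene. Fgb held STAT-type, interleukin response type, C/EBP-type and HNF1-type matches at 162, 91, 80 and 29 bases, and Fgg a single interleukin response type match at 13. Among 32851 promoters of the same length, 7.02 percent held the STAT-type letters, 6.43 percent the HNF1-type, 9.56 percent the C/EBP-type, 0.384 percent the HNF4-type and 9.10 percent the interleukin response type. The 31 promoters matched for 29 members held them in 6, 9, 9, 0 and 5 cases, in that order. The match is of letters only, and the overlap between motifs was not counted apart.

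Fga was at 2803, 529 and 1135 CPM in knockout and at 4393, 4179 and 4266 CPM in wild type. Fgb was at 3040, 1156 and 1667 CPM in knockout and 4425, 3986 and 3995 CPM in wild type. Fgg was at 2413, 415 and 1005 CPM in knockout and 3783, 3320 and 3445 CPM in wild type. In all 3 genes every knockout library was below every wild-type library, knockout replicate 2 was lowest and replicate 1 highest. The wild-type libraries lay close together (Fga 4279 ± 107 CPM) and the knockout libraries did not (1489 ± 1178 CPM; SD, n = 3 each).

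With that spread the log2 fold changes over 6 libraries did not pass the edgeR test. They were -1.52 ± 0.57 for Fga (adjusted p = 0.151), -1.08 ± 0.37 for Fgb (0.132) and -1.46 ± 0.58 for Fgg (0.172). In the Y-linked libraries all 3 genes fell, with log2 fold changes of -2.35 for Fga (adjusted p = 0.0107), -1.5 for Fgb (0.0116) and -2.26 for Fgg (0.0156). In the Xist pair the log2 fold changes were -0.65, -0.54 and -0.65. The 3 genes took 0.857, 0.228 and 0.353 percent of all counts in knockout replicates 1 to 3 and 1.29, 1.09 and 1.15 percent in the wild type.

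F13b, the carrier subunit of the factor XIII that cross-links fibrin, had its lowest value in the same library. It was at 150, 67.7 and 95.6 CPM in knockout and 219, 221 and 185 CPM in wild type. The groups did not overlap, and the log2 fold change of -1.0 ± 0.29 missed the threshold (adjusted p = 0.0951). It fell by 1.32 in the Y-linked libraries (adjusted p = 0.00806). DESeq2, with 7.03 percent of all genes called lower, called all 4 genes of fibrin formation lower over 6 libraries. The other members that DESeq2 called lower were F11, Plg, C1ra, Mbl1, Cfb, C6 and C8b.

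**Figure D2:**
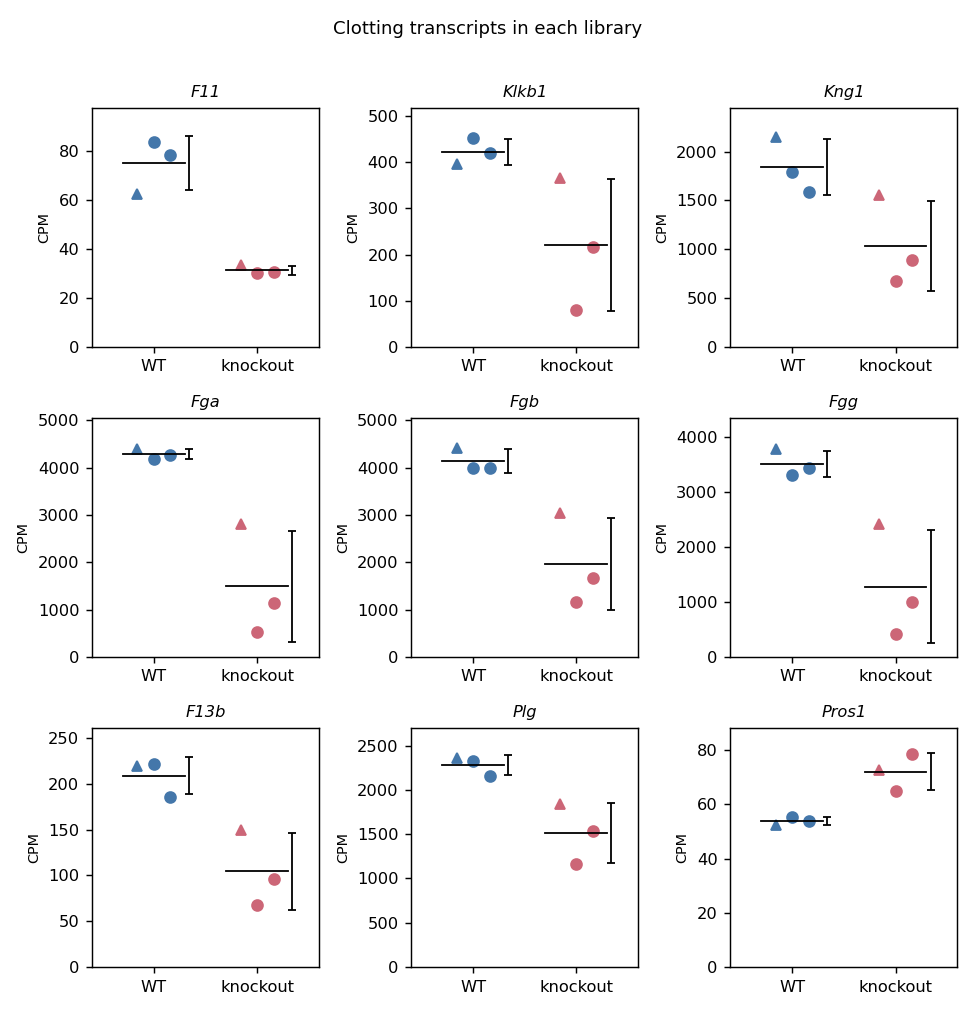
CPM of coagulation genes in each library; triangles are the Xist pair, circles the Y-linked libraries, horizontal lines group means and bars the SD (n = 3 each). Knockout replicate 2 is the lowest library for Fga at 529, and all F11 knockout points lie between 30.1 and 33.5.

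Plasminogen and its partners dissolve or stabilise the clot. Plg, the precursor of plasmin, was at 1838, 1165 and 1531 CPM in knockout and 2363, 2330 and 2152 CPM in wild type. The groups did not overlap, and the log2 fold change was -0.59 ± 0.23 (adjusted p = 0.165). Cpb2, which removes plasminogen binding sites from fibrin, had a log2 fold change of -0.29 (adjusted p = 0.256) with no overlap. Vtn, which stabilises the plasminogen activator inhibitor, was at 1988, 1360 and 1572 CPM in knockout and 1996, 1977 and 1978 CPM in wild type, with overlap (-0.27 ± 0.21, adjusted p = 0.450).

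The protein C anticoagulants, which switch off factors V and VIII, had opposite signs. Proc was at 374, 178 and 248 CPM in knockout and 383, 426 and 389 CPM in wild type, with a log2 fold change of -0.58 ± 0.28 (adjusted p = 0.232). Pros1, the protein S cofactor of Proc, was at 72.7, 64.9 and 78.6 CPM in knockout and 52.5, 55.5 and 53.8 CPM in wild type, with a log2 fold change of 0.42 ± 0.12 (adjusted p = 0.0916). Neither pair of groups overlapped. In the Y-linked libraries Proc fell by 0.94 (adjusted p = 0.0205). The 6 vitamin K-dependent members (F2, F7, F9, F10, Proc and Pros1) had a median log2 fold change of -0.21. Of them 1, Proc, was lower without overlap, beside 15.5 percent of all genes.

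The classical pathway starts when C1 binds antibody. C1ra and C1s1, its protease subunits, lie 6.90 kb apart on chromosome 6. C1ra was at 203, 159 and 105 CPM in knockout and 306, 397 and 409 CPM in wild type. All knockout values were below all wild-type values, and the log2 fold change of -1.25 ± 0.27 missed the edgeR threshold (adjusted p = 0.0566). C1ra was called in 5 of the 14 alternatives, DESeq2 among them. C1s1 was at 280, 40.0 and 48.6 CPM in knockout and 392, 493 and 478 CPM in wild type, with a log2 fold change of -1.88 ± 0.74 (adjusted p = 0.168). Knockout replicate 1 stood apart from the other knockout libraries for C1s1.

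Both fell in the Y-linked libraries, C1ra by 1.62 (adjusted p = 0.00589) and C1s1 by 3.46 (adjusted p = 0.000419). The C1s1 difference was larger there than in the Xist pair (-0.48): the interaction was 2.97 ± 0.29 on the log2 scale (SE; edgeR adjusted p = 0.0115). The paralogs C1rb and C1s2, which are 97.9 and 96.0 percent identical to them over 2432 and 2644 bases, had at most 8 and 1 counts in a library. C2, the protease of the classical C3 convertase, was at 93.3, 113 and 76.9 CPM in knockout and 89.6, 107 and 121 CPM in wild type (-0.17, adjusted p = 0.602). C4b, its partner, had a log2 fold change of -0.19 (adjusted p = 0.524) and is 96.0 percent identical to C4a over 5378 bases.

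The lectin pathway is started by mannose-binding lectins and their proteases. Mbl1 was at 126, 61.9 and 83.9 CPM in knockout and 148, 195 and 192 CPM in wild type, without overlap and with a log2 fold change of -0.98 ± 0.27 (adjusted p = 0.0896). Mbl2 was at 575, 406 and 332 CPM in knockout and 518, 305 and 242 CPM in wild type, with overlap (0.30 ± 0.34, adjusted p = 0.597). The lectins had opposite signs, and Mbl1 fell by 1.41 in the Y-linked libraries (adjusted p = 0.00439). The proteases Masp1 and Masp2 had log2 fold changes of -0.16 (adjusted p = 0.526) and 0.09 (adjusted p = 0.767). The Masp1 groups did not overlap. Masp2 shares 1743 bases of its transcript with Tardbp, a gene on the opposite strand, but both genes had whole counts in all 6 libraries, so no reads were seen divided between them.

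C3, on which all pathways meet, was at 8299, 5368 and 8172 CPM in knockout and 9878, 7097 and 7044 CPM in wild type. The groups overlapped, and its log2 fold change was -0.14 ± 0.30 (adjusted p = 0.798). Cfb, the protease of the alternative C3 convertase, was at 906, 534 and 650 CPM in knockout and 1267, 1116 and 1122 CPM in wild type. Its groups did not overlap, and its value was -0.75 ± 0.24 (adjusted p = 0.115). Cfb fell by 0.93 in the Y-linked libraries (adjusted p = 0.0173). Cfb and C2 lie 85 bp apart on chromosome 17, and the readthrough gene Gm20547 shares exons with both.

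**Figure D3:**
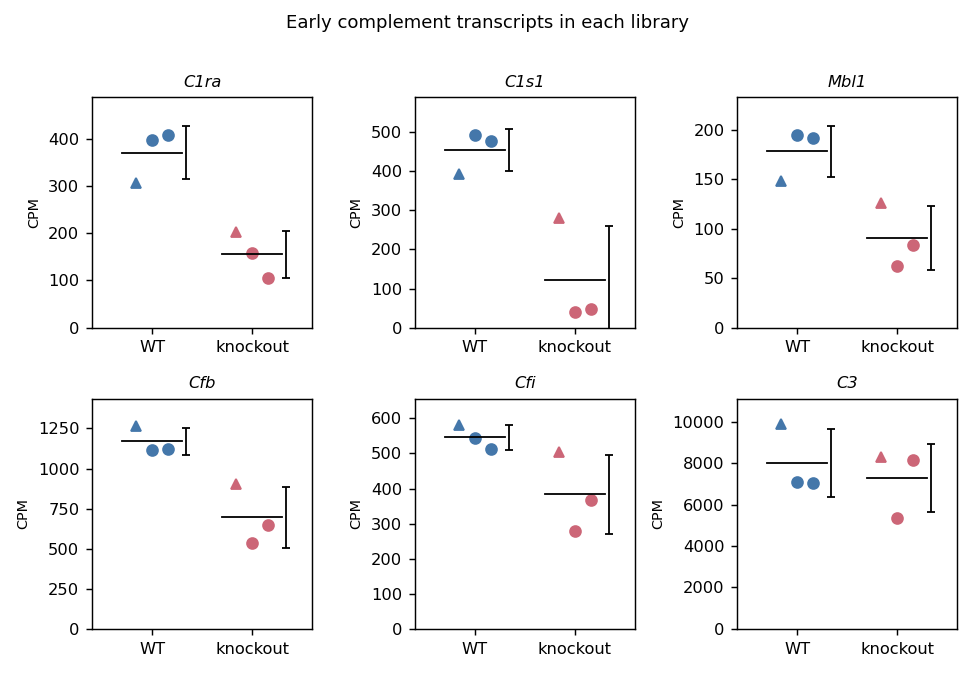
CPM of early complement genes and the regulator Cfi in each library; triangles are the Xist pair, circles the Y-linked libraries, horizontal lines group means and bars the SD (n = 3 each). C1s1 is at 40.0 and 48.6 in knockout replicates 2 and 3 and at 280 in replicate 1, while the C3 groups overlap; the knockout bar of C1s1 stops at the axis floor.

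Terminal components join C5b one after another to form the membrane pore. The C8a and C8b genes lie 11.1 kb apart on chromosome 4 and C6 on chromosome 15. Promoters of C6 and C8a are shown because these genes had the lowest log2 fold changes of the members, at chr15:4726960-4727209 (plus strand) for C6 and chr4:104876399-104876648 (minus strand) for C8a (RefSeq, GRCm38.p6, 250 bases before the start, capitals as above).
C6: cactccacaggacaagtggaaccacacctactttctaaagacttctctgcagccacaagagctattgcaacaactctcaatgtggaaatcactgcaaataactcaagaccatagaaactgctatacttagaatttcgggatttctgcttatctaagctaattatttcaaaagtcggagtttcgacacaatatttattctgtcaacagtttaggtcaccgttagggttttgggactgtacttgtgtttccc
C8a: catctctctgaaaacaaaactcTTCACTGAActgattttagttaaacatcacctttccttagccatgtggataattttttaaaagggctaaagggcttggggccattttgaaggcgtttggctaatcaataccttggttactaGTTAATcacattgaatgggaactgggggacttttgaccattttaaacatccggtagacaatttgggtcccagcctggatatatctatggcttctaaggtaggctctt
C8a held a STAT-type match at 228 and an HNF1-type match at 107 bases before the start, and none of the searched letters were found in the C6 window. GENCODE M21 starts C6 at 4727175, inside that window. C8b held an HNF1-type match at 206 bases and C9 a C/EBP-type match at 132 bases.

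C6 was at 25.2, 17.7 and 15.3 CPM in knockout and 7.20, 331 and 399 CPM in wild type. C8a was at 260, 51.6 and 73.7 CPM in knockout and 173, 878 and 890 CPM in wild type. C8b was at 120, 56.7 and 61.3 CPM in knockout and 112, 389 and 428 CPM in wild type. In each of these genes wild-type replicate 1 was far below the other wild-type libraries and inside or below the range of the knockout libraries. C9, the pore-forming component, was at 336, 65.3 and 128 CPM in knockout and 128, 637 and 735 CPM in wild type, with the same order of the wild-type libraries.

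Over 6 libraries the groups overlapped for all of these, and none passed the edgeR test. The log2 fold changes were -3.66 ± 1.19 for C6 (adjusted p = 0.118), -2.33 ± 0.82 for C8a (0.135), -1.96 ± 0.54 for C8b (0.0868) and -1.50 ± 0.78 for C9 (0.268). In the Y-linked libraries all 4 genes fell, with log2 fold changes of -4.47 for C6 (adjusted p = 0.000279), -3.82 for C8a (0.000638), -2.80 for C8b (0.000485) and -2.83 for C9 (0.00428). In the Xist pair the values were 1.80, 0.58, 0.10 and 1.39. For each of these 4 genes the wild-type Y-linked libraries were above all 4 other libraries.

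The interaction of group with Xist or Y-linked counts tested that difference directly. It was called for 5 members, or 13.5 percent, beside 2.9 percent of all genes. At an unadjusted p under 0.05 there were 11 members (29.7 percent, beside 20.9 percent). The 5 were C1s1 and, among the terminal genes, C6 (6.27 ± 0.30, adjusted p = 0.00212), C8a (4.40 ± 0.39, 0.00912), C8b (2.89 ± 0.24, 0.00786) and C9 (4.21 ± 0.60, 0.0293). The Xist side of the test rests on 1 library per group, and its spread comes from the Y-linked libraries. Without wild-type replicate 2 or 3 only C6 was still called (adjusted p = 0.0132 and 0.0153), beside 0.587 and 0.446 percent of all genes. In those fits C8a was at 0.0508 and 0.0556, C8b at 0.0593 and 0.0704, C1s1 at 0.0916 and 0.0901 and C9 at 0.108 and 0.119. Without knockout replicate 2 or 3 the count was 16 or 23 members, beside 19.9 or 31.2 percent of all genes. With no filter on low counts 10 members were called, beside 6.78 percent of all genes.

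Hc, which encodes C5, was at 706, 617 and 733 CPM in knockout and 660, 966 and 1067 CPM in wild type (-0.39 ± 0.23, adjusted p = 0.322). C8g, the third C8 chain and the only one unrelated to the pore-forming family, was at 278, 142 and 223 CPM in knockout and 218, 263 and 253 CPM in wild type (-0.19 ± 0.26, adjusted p = 0.666). The groups overlapped for both.

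**Figure D4:**
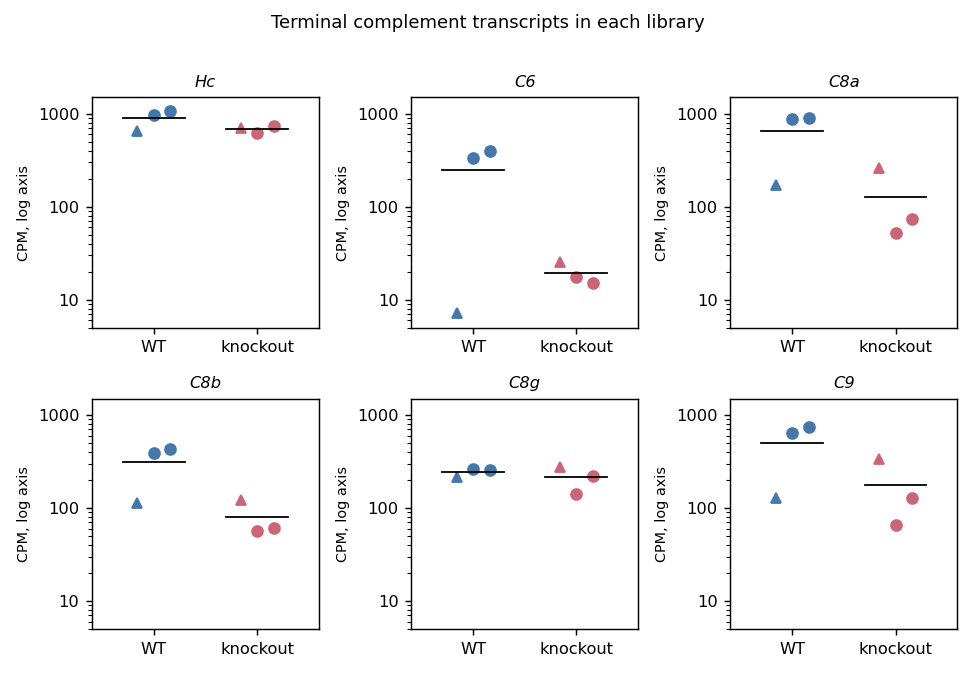
CPM (log axis) of the 6 terminal complement genes in each library; triangles are the Xist pair, circles the Y-linked libraries and horizontal lines group means. The wild-type triangle of C6 at 7.20 is below the wild-type circles at 331 and 399, and all 6 genes overlap between groups.

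The soluble regulators limit complement on host surfaces. Cfi, which cuts C3b and C4b, was at 503, 279 and 369 CPM in knockout and 581, 545 and 512 CPM in wild type. C4bp, its cofactor, was at 375, 429 and 301 CPM in knockout and 433, 522 and 503 CPM in wild type. Neither gene's groups overlapped, and the log2 fold changes were -0.51 ± 0.24 (adjusted p = 0.231) and -0.40 ± 0.19 (adjusted p = 0.238). Cfi fell by 0.71 in the Y-linked libraries (adjusted p = 0.0386).

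The ratios of partner subunits were compared next. Levels of different genes were compared per length, as CPM per kilobase of merged exons, and 6 pairs of subunits were picked after their values were seen. The Fgb to Fga ratio was 0.857, 1.73 and 1.16 in knockout and 0.796, 0.754 and 0.740 in wild type, and the Fgg to Fga ratio was 1.24, 1.13 and 1.27 against 1.24, 1.14 and 1.16. The first ratio did not overlap between groups and the second did. The C1s1 to C1ra ratio was 1.32, 0.240 and 0.443 in knockout and between 1.11 and 1.22 in all wild-type libraries.

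The C8a to C8g ratio was 0.384, 0.149 and 0.136 in knockout and 0.327, 1.37 and 1.44 in wild type. The C8b to C8g ratio was 0.254, 0.234 and 0.161 in knockout and 0.303, 0.868 and 0.990 in wild type, without overlap. The C8a to C8b ratio was 1.51, 0.638 and 0.841 in knockout and 1.08, 1.58 and 1.46 in wild type. The exact two-sided permutation p was 0.1 for the non-overlapping pairs (adjusted p = 0.3), which is the smallest that 3 against 3 allows, and 0.2 or more for the others. No ratio could pass 0.05 in this design.

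**Figure D5:**
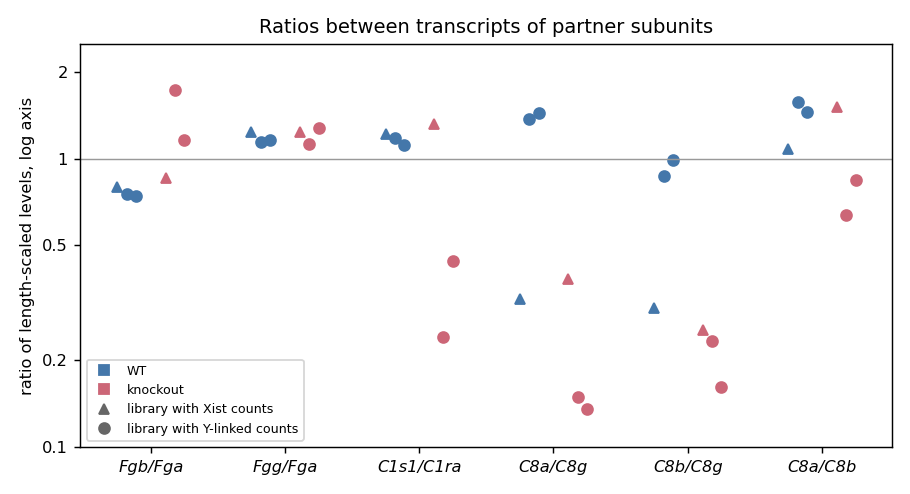
Ratio of length-scaled levels (log axis) of 6 pairs of partner subunits in each library; triangles are the Xist pair and circles the Y-linked libraries, in blue for wild type and red for knockout. Both C8 ratios to C8g are higher in the wild-type Y-linked libraries (0.868 to 1.44) than in every other library. The size of a ratio depends on the merged exon lengths used.

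Per length, Fgg (1680), C3 (1557), Fga (1422), Fgb (1085) and Vtn (977) had the highest wild-type levels, in CPM per kilobase. In knockout the order was C3 (1415), Vtn (808), Fgg (610), Fgb (513) and Fga (495). Pros1 was lowest in wild type (13.2), and C6 was lowest in knockout (5.46, against 69.1 in wild type). The lowest count of any member in a library was 365, so counting error did not limit these values.

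Other genes of the same cascades were counted from lists taken with earlier results known. Of 24 other coagulation genes 23 were tested, and edgeR called none. At an unadjusted p under 0.05, 6 were lower and none was higher, and DESeq2 called 4 lower and limma voom none. Their median log2 fold change was -0.35, and 10 were lower and 1 higher without overlap. Of 28 other complement genes 25 were tested, and edgeR called none, with 5 lower and none higher at an unadjusted p under 0.05 and DESeq2 calling 3 lower and limma voom none. Their median was -0.33, and 7 were lower and 1 higher without overlap. In the Y-linked libraries 6 and 10 of these genes fell and 1 of each list rose. The complement list shares C1qa, C1qb, C1qc and Vsig4 with the Kupffer cell markers below and Colec11 with the stellate markers. Those genes are counted in both places. Over all genes 16.1 percent were called lower and 17.2 percent higher there. Without overlap over 6 libraries, 15.5 percent of all genes were lower and 16.9 percent higher. At an unadjusted p under 0.05 (edgeR), 11.7 percent were lower and 14.6 percent higher. DESeq2 called 7.03 percent of all genes lower and 8.77 percent higher.

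Markers of other liver cells were measured beside these values. The summed CPM of 10 endothelial markers was 116 to 198 in knockout and 238 to 327 in wild type, and 9 of the 10 were lower at an unadjusted p under 0.05. The Kupffer cell markers summed to 141 to 313 CPM in knockout and 203 to 280 CPM in wild type, and the stellate markers to 173 to 378 and 283 to 623 CPM. The bile duct markers summed to 31.6 to 87.5 and 53.8 to 87.1 CPM, and those of lymphocytes and neutrophils to 5.14 to 11.1 and 7.60 to 11 CPM, with 1 gene, Ly6g, at 0 in all libraries. Over 6 libraries the edgeR and limma voom tests called no marker of these other cells, and DESeq2 called 4 endothelial markers and 1 bile duct marker lower. At an unadjusted p under 0.05 no Kupffer or stellate marker was lower or higher, and 1 bile duct marker and 1 lymphocyte or neutrophil marker were lower and 1 of the latter higher. Within the 4 Y-linked libraries, where most falls of members were called, edgeR called 8 of 10 endothelial, 5 of 11 Kupffer, 4 of 10 stellate, 2 of 8 bile duct and 2 of 9 tested lymphocyte and neutrophil markers lower. It called 1 Kupffer marker and 1 lymphocyte or neutrophil marker higher there. Of the 10 hepatocyte markers it called 4 lower and 1 higher in those libraries. Over all genes 16.1 percent were called lower and 17.2 percent higher in them. Over 6 libraries 11.7 percent of all genes were lower and 14.6 percent higher at an unadjusted p under 0.05 (edgeR). DESeq2 called 7.03 percent of all genes lower and 8.77 percent higher. The part of these cell types in the members' values was not tested.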

How the data were processed

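Liver mRNA of 3 knockout and 3 wild-type mice was sequenced as paired reads. The authors deposited 1 table of RSEM expected counts for 55450 genes, which are estimated counts that need not be whole. The submitters' processing notes list bcl2fastq 2.17, cutadapt 1.18, STAR 2.7.0f, RSEM 1.3.1 and the build mm9, without roles. All 55450 identifiers and symbols equal GENCODE M21, an annotation of GRCm38, so coordinates here are GRCm38. Whether counting used strand is not given in the sources used here. Exons of 7 members overlap a gene on the opposite strand. All 7 of those genes and 5 of the members had whole counts in every library, so no division of reads across strands was seen. The other members, C1s1 and C2, also share sequence with a paralog or a readthrough gene.

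The deposited values were rounded before testing. Of the genes, 14539 passed edgeR's filterByExpr, and edgeR 4.0.16 (R 4.3.3) fitted its quasi-likelihood test with TMM scaling, two-sided, with Benjamini-Hochberg adjustment over all genes tested and a threshold of 0.05. The SE is the absolute log2 fold change over the square root of F. CPM used TMM-scaled totals, and the Xist pair's log2 ratios a prior count of 2. The Y-linked libraries were fitted alone, and an interaction with Xist or Y-linked counts was fitted over 6 libraries. DESeq2 1.42.0 and limma 3.58.1 (voom) were alternatives. The code was tested on simulated data with the dispersion estimated from these libraries. There the edgeR test of 3 against 3 recovered 67.3 percent of 4-fold and 13.5 percent of 2-fold changes, with 9 false calls. At 0.25 of that dispersion it recovered 97.9 and 79.4 percent, with 18 false calls. A member that was not called may thus still differ.

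The members and lists were chosen with earlier results of these data known. Each member is named. Per-library values are given for called members, for the lowest and highest log2 fold change in each role and for Fga, Fgb and Fgg, and values for other members were chosen after they were seen. The promoters, motifs and subunit pairs were chosen after the values were seen. Members had whole counts in every library in 29 cases, and the other 8 held reads divided between genes. The labels describe separate mice.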

Additional observations from a re-analysis of the deposited data

Results flagged for a closer look

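For 5 members the knockout effect differed between the Xist pair and the Y-linked libraries by the edgeR interaction test. The difference, Xist effect minus Y-linked effect on the log2 scale, was 2.97 for C1s1, 6.27 for C6, 4.40 for C8a, 2.89 for C8b and 4.21 for C9. In C1s1 the odd library was knockout replicate 1, at 280 CPM beside 40.0 and 48.6 CPM in the other knockout libraries. In C6, C8a, C8b and C9 wild-type replicate 1 was 1.86 to 5.65 log2 units below the mean of the other wild-type libraries. The Xist side has 1 library per group and so no replicate check. Sex is not in the labels, and what sets replicate 1 apart was not tested.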

How the results depend on the processing

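The median log2 fold change of the members (-0.44) ranged from -0.66 to -0.32 over the 14 alternatives. Each lay within 0.262 of it, the SD between libraries of a group of the members' median log2 CPM. The count of members called lower was 11 with DESeq2, 2 with no low count filter, 3 with the Xist or Y-linked state as a term, 17 in the 4 Y-linked libraries and 0 to 16 without each library in turn. Members called higher numbered 1 with DESeq2, 1 in the Y-linked libraries and 0 to 1 without each library. Over all genes the 490 calls became 2290 with DESeq2, 771 with no filter, 1504 with the state term, 4847 in the Y-linked libraries and 6 to 4473 without each library. The interaction was called for 10 members with no filter (6.78 percent of all genes) and for 1 to 23 without a library (0.446 to 31.2 percent of all genes); these leave-outs of the interaction were chosen after seeing the data. Without knockout replicate 1, 16 members were called lower and Pros1 higher, beside 2101 lower and 2372 higher of 14833 genes. Without wild-type replicate 1 F11, C6 and C8b were called lower, beside 110 of 14935 genes. The cause was not tested. F9 changed sign with library total scaling (0.0062) and ranged from -0.097 to 0.066 without each library. Masp2 was -0.10 in the Y-linked libraries and ranged from -0.022 to 0.175, F5 from -0.034 to 0.157, C3 from -0.249 to 0.048 and C8g from -0.43 to 0.042. With the replicate number as a block, 0 members and 105 genes were called. The labels do not say whether the numbers pair the mice. The deviations of same-numbered libraries correlated at 0.178, 0.0443 and 0.0679. The replicate 1 libraries, which share Xist counts, correlated best with their own number, and the others did not. With so few libraries per group these correlations cannot settle the pairing. Totals put the 3-count floor at 0.0534 to 0.0629 CPM, far below every member.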

Other observations

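Other acute phase genes, which the liver raises in inflammation, had both signs, with 8 positive and 9 negative log2 fold changes. Of 18 such genes 17 were tested and edgeR and limma voom called none, with 5 lower and 3 higher at an unadjusted p under 0.05, and DESeq2 called 3 lower and 2 higher. Among all genes 11.7 percent were lower and 14.6 percent higher at that unadjusted p (edgeR). DESeq2 called 7.03 percent of all genes lower and 8.77 percent higher. The log2 fold changes of the list ran from -2.62 to 1.44, with a median of -0.07. Without overlap 4 of these genes were lower and 1 was higher, beside 15.5 and 16.9 percent of all genes. Hp, haptoglobin, was at 1809, 5094 and 4261 CPM in knockout and 1884, 1906 and 2086 CPM in wild type, a gene picked after its values were seen. The Hp groups overlapped. The summed CPM of the acute phase list was 10080 to 18248 in knockout and 8841 to 10513 in wild type.

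Of 19 hepatocyte transcription factors edgeR and limma voom called none over 6 libraries, with 7 lower and 1 higher at an unadjusted p under 0.05, and DESeq2 called 6 lower. Among all genes 11.7 percent were lower and 14.6 percent higher at that unadjusted p (edgeR). DESeq2 called 7.03 percent of all genes lower and 8.77 percent higher. Cux2, a repressor with sex-biased expression in mouse liver, was at 8.11, 18.7 and 28.2 CPM in knockout and 10.9, 0.116 and 0.428 CPM in wild type (interaction adjusted p = 0.0131, edgeR). Cux2 was high in both Xist libraries and in the knockout Y-linked libraries, and low in the wild-type Y-linked libraries, the reverse of C6. This gene was also picked after its values were seen, and any relation to the complement genes was not tested.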
